A study of Mus musculus with 12 samples.

Results

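The genes described here are 40 genes of glutathione and antioxidant metabolism, selected by symbol from the 21881 genes of the table. They were 19 glutathione transferases and 21 other genes: 4 that make or recycle glutathione, 8 that remove peroxides or superoxide, 3 of the thioredoxin system, 2 that handle quinones and heme, 2 that supply NADPH, and the 2 regulators Nfe2l2 and Keap1. Their levels were measured by sequencing polyadenylated RNA from immortalized mesenchymal stem cell (MSC) lines, derived from bone marrow of adult C57BL/6 mice, in 4 groups of 3 libraries numbered 0, 1 and 2. KO_let-7g cells lacked Dicer (Dicer -/-), the enzyme that cuts microRNA precursors into mature microRNAs, and received a synthetic duplex of the microRNA let-7g. KO_siNr6a1 cells had the same genotype and received a small interfering RNA (siRNA) against Nr6a1, which encodes an orphan nuclear receptor. KO_siCtrl cells were Dicer -/- with a nontargeting siRNA, and WT_siCtrl cells were Dicer f/f, the conditional allele before deletion, with a nontargeting siRNA. Every group was transfected at 20 nM with HiPerfect and harvested at 48 h. The lines are monoclonal and how many clones stand behind each genotype is not given by the labels, so the Dicer genotype and the clone cannot be told apart. Whether the 3 libraries of a group came from separate cultures is not stated, so every p-value describes library-to-library spread alone, and that spread may be technical.

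NRF2, the product of Nfe2l2, is a transcription factor that KEAP1 binds and hands to a CUL3 ubiquitin ligase for destruction. Oxidants and electrophiles modify cysteines of KEAP1, after which NRF2 accumulates, pairs with a small MAF protein and binds antioxidant response elements near its target genes. BACH1, a heme-binding repressor, occupies overlapping elements with the same MAF partners, and Hmox1 is its best known target. Glutathione transferases join glutathione to reactive compounds, and the glutathione they use is made from cysteine by the ligases encoded by Gclc, Gclm and Gss and kept reduced by the reductase encoded by Gsr. Much of NRF2 control acts on protein stability, which RNA levels do not measure.

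The sequences that bear on these comparisons are the microRNA that was added back, its matches in the 3′ untranslated regions (UTRs) of the pathway, and some promoters. The mature mouse let-7g in RefSeq (build GRCm38.p6, chr9:106178846-106178867, plus strand) is given with its seed, bases 2 to 8, in capitals; the labels do not give the sequence of the transfected duplex itself. A full seed match followed by an A, the 8mer CTACCTCA, was searched on the transcript strand of 3′ UTRs from GENCODE M21 (build GRCm38). Of the 40 members, 1 held it (2.5%), against 3.2% of the 17923 genes of the table with a 3′ UTR. That member was Sod2, the mitochondrial superoxide dismutase. Of the 66 further genes of these pathways read below, 2 held the 8mer (3.03%), Abcc5 and Bach1. The repressor gene Bach1, which is outside the 40, held 2 such matches. Capitals below mark the 8mer within its neighbouring bases, at chr16:87732000-87732007 and chr16:87732293-87732300 for Bach1 and chr17:13015760-13015767 for Sod2, all on the plus strand.
mmu-let-7g-5p: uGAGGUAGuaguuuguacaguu
Bach1 site at base 2129: aatggatttcCTACCTCActggacactc
Bach1 site at base 2422: agtaactacaCTACCTCAtacacacctt
Sod2 site at base 589: gccctgggctCTACCTCAgtaatgaaaa

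The shorter seed match TACCTC, a 6mer contained in the 8mer, was in 6 of 40 members (15%): Gclm, Gsr, Prdx6, Cat, Sod2 and Nqo1. Of all genes with a 3′ UTR, 24.3% held it, and of the 66 further genes 31.8%. The full seed match without the A, CTACCTC, was in 1 member (2.5%) and in 7 of the 66 (10.6%), against 9.5% of all genes. The 7 were Slc7a11, Abcc5, Glrx, Glrx3, Osgin1, Mafg and Bach1. The core of the antioxidant response element, TGACNNNGC, was searched on both strands of RefSeq promoter windows that run from 250 bases before to 50 bases after the start site, and a gene was counted where any of its windows held it. It was in 12 of the 34 members with a window (35.3%), against 2233 of 14684 genes of the table with one (15.2%). The 12 were Gsta3, Gstm5, Gstm7, Mgst1, Gclm, Prdx1, Sod1, Txnrd1, Srxn1, G6pdx, Pgd and Nfe2l2. Gsta4, Gstt2, Gclc, Gsr, Prdx6 and Hmox1 had no window. A second word, TGANTCA, which MAF and AP-1 factors share, was chosen after the Srxn1 window had been seen and was in 5 of 34 members (14.7%), against 8.23% of the 14684 genes. Srxn1, Prdx1 and Gclm are shown as members that rose with let-7g and whose window held TGACNNNGC. They are not the largest differences in order. Mgst1 and Gstm7 rose more than Gclm, also held the word and are not shown. Gss and Gstt1 also differed more than Gclm, and their windows held neither word. Capitals mark either word, and at 1 place in Prdx1 the 2 words overlap. The windows lie at chr2:152105274-152105573 for Srxn1, chr4:116685349-116685648 for Prdx1 and chr3:122245307-122245606 for Gclm, on the plus strand of GRCm38.p6. In Srxn1 the TGACNNNGC match lies after the start site and both TGANTCA matches before it, 102 and 45 bases upstream. A match describes the letters only and is not a measured binding site.
Srxn1 promoter: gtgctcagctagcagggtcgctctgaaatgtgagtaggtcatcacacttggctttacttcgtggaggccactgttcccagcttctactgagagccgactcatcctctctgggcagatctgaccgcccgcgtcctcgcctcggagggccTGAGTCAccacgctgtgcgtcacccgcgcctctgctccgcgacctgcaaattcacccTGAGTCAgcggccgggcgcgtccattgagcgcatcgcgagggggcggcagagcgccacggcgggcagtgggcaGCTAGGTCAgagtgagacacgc
Prdx1 promoter: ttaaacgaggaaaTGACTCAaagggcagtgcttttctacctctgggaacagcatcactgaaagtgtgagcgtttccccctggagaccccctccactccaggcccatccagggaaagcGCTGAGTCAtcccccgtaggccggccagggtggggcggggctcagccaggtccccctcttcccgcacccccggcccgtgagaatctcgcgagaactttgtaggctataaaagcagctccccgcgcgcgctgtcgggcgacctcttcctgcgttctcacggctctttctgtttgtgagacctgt
Gclm promoter: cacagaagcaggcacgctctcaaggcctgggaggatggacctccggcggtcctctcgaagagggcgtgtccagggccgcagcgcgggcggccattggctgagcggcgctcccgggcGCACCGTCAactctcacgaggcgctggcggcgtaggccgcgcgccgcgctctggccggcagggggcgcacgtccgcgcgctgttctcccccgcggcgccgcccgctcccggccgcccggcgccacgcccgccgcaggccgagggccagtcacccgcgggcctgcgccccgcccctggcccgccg

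Values are FPKM, sequenced fragments divided by transcript length and by the library's mapped total, so that levels of different genes can be compared per length. The table holds no read counts and the depth of a library is unknown; depths relative to the shallowest library, read from the steps between low values, ran up to 1.82. Nr6a1 was 3.87, 5.38 and 3.39 FPKM in KO_let-7g, 3.43, 4.302 and 3.31 in KO_siNr6a1, 12.6, 12.3 and 10.2 in KO_siCtrl and 1.16, 0.945 and 1.25 in WT_siCtrl libraries, so the targeted gene was lower in both treated groups than in KO_siCtrl (log2 fold change -1.30 with let-7g and -1.44 with its siRNA). Dicer1 averaged 3.86 ± 0.214 FPKM in KO_siCtrl and 6.58 ± 1.45 FPKM in WT_siCtrl libraries (SD, n = 3 each); gene totals do not show whether reads came from the deleted exons. Of 10 mesenchymal stem cell markers, 9 averaged at least 1 FPKM in every group, and Thy1 was at or near 0 throughout. Of 7 blood markers 3 did (Cd14, Cd68 and Cd74), while the leukocyte marker Ptprc was at or near 0. Summed epithelial and liver markers were at most 3.02 FPKM and endothelial markers at most 0.429 FPKM in any library. In bulk RNA, fewer cells of a type and less RNA per cell cannot be told apart.

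Differences are given as log2 fold changes of FPKM + 1 with the standard error (SE), from a limma model across all 11801 genes that reached 1 FPKM in at least 3 libraries. A gene is said to rise or fall when its adjusted p (Benjamini-Hochberg) was under 0.05. Calls, and their losses with a library left out, come from the fit without a block on the replicate number, unless that block is named. With the block and all libraries no member lost its call, those said below to end with a library left out among them. Of the 40 members, 34 were tested. Gsta2, Gsta3, Gstm6, Gstt2, Gstk1 and Gpx3 did not reach the level, and Gstm4 reached it only through the KO_let-7g libraries, in which it was highest. KO_siCtrl serves in 3 of the 4 comparisons, so the values of those comparisons are given side by side and are not independent.

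In Dicer -/- cells given let-7g, 17 of the 34 tested members rose and 5 fell against KO_siCtrl, 64.7% in all. Of all genes tested, 45.6% were called, 27.5% higher and 18.2% lower. The median log2 fold change was 0.31 over the 34 and 0.08 over all tested genes. Srxn1, Mgst1, Prdx1, Hmox1, Gss and Gstm7 rose by more than 1 on the log2 scale, and Gsr and Gstt1 fell by more than 1. By role, all 4 glutathione supply genes changed (3 rose, 1 fell), all 3 thioredoxin genes rose, and 6 of the 14 tested transferases rose while 3 fell. The 6 include Gstm4, which had to differ because it was tested only through the KO_let-7g libraries. After quantile normalization 16 members rose and 6 fell, and 49.9% of all called genes were higher, against 60.2% as deposited. With 1 library left out 12 to 17 members rose, the fewest without KO_let-7g replicate 2. Under median-of-ratios scaling 14 rose and 6 fell, and with the replicate number as a block 22 rose and 6 fell. The members that fell were 2 without KO_let-7g replicate 0 and 3 without KO_let-7g replicate 1. The blood markers did not move as 1 group: Cd68 rose (log2 fold change 1.25, adjusted p = 0.000133) and Cd14 rose (log2 fold change 0.40, adjusted p = 0.0496), while Cd74 was not called (log2 fold change -0.63, adjusted p = 0.0733). Their part in these differences was not tested.

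With the siRNA to Nr6a1, 6 members rose and 5 fell against KO_siCtrl, 32.4% of the 34, a share close to the 29.4% of all genes tested (13.2% higher and 16.3% lower). The 6 that rose were Mgst1, Prdx1, Gss, Srxn1, Pgd and Sod2, and the 5 that fell were Gsta4, Mgst2, Mgst3, Gsr and Nfe2l2. The median log2 fold change was -0.01 over the 34 and -0.06 over all tested genes. With the replicate number as a block, 8 members fell in place of 5, Gclc, Gpx1 and Keap1 being added. Under median-of-ratios scaling 8 rose and 4 fell. Leaving out KO_siCtrl replicate 1, KO_siNr6a1 replicate 0 or KO_siNr6a1 replicate 2 left 3 that fell. With library weights 12 rose and 6 fell. The summed blood markers were 54.4 to 73.1 FPKM in KO_siNr6a1 and 41.5 to 50.6 FPKM in KO_siCtrl libraries. Of the 3 that make up nearly all of the sum, Cd74 was not called (log2 fold change 0.66, adjusted p = 0.0873), Cd14 fell (log2 fold change -0.44, adjusted p = 0.0481) and Cd68 was not called (log2 fold change -0.06, adjusted p = 0.828). The part of these markers in the differences was not tested.

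The hexamer AGCCTT was searched in 3′ UTRs with earlier results of these data known, and genes with and without it are compared here as a description. The labels do not give the siRNA sequences, so whether the word matches a transfected RNA is not known. In KO_siNr6a1 against KO_siCtrl, 21.9% of the 4392 tested genes with the word were higher and 11.9% lower, while of the 5825 without it 7.61% were higher and 19.8% lower. In KO_let-7g against KO_siCtrl 34.2% of those with it were higher and 17.3% lower, against 22.2% and 20.5% of those without. Between the treatments (KO_let-7g against KO_siNr6a1) 25.9% of genes with the word were higher and 16.1% lower, against 28.1% and 12.7% of those without. In KO_siCtrl against WT_siCtrl the shares were 29.9% higher and 27.3% lower with it, and 30.4% and 24.3% without. Among the members 14 of 40 held it (35%), near the 37.9% of all 17923 genes with a 3′ UTR. All 6 members that rose with the siRNA to Nr6a1 held it (Mgst1, Gss, Prdx1, Sod2, Srxn1 and Pgd), and so did 2 of the 5 that fell, Gsr and Nfe2l2. Of the members that rose with let-7g 9 of 17 held it, and of those that fell 1 of 5. Genes with and without the word were not matched for 3′ UTR length, and a short word is found more often in a longer UTR. Because earlier results were known when the word was searched, its counts among called members are no independent support. The shares of higher genes with and without the word differed most in the comparisons of each treatment with KO_siCtrl, which share that control. The part of the word in these differences was not tested, nor was its part in the rises of the 6 members with the siRNA to Nr6a1.

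The direct comparison of the treatments is the test of where they differed. In KO_let-7g libraries 16 members were higher and 3 were lower than in KO_siNr6a1 libraries, 55.9% of the 34, against 40.9% of all genes tested (27.6% higher and 13.3% lower). Under median-of-ratios scaling, which moved the median of all genes to 0.003, against 0.12 as deposited, 14 were higher and 7 lower. With 1 library left out 11 to 16 were higher, and with the replicate block 21 were higher and 4 lower. The members with the largest log2 differences upward were Hmox1, Srxn1 and Gstm7, and Gstt1, Gsr and G6pdx were the 3 that were lower. All 3 thioredoxin genes and both quinone and heme genes were higher with let-7g, and no gene of the peroxide and superoxide group (0 of 7) was called. With the replicate block 3 of these 7 were called, Gpx4 and Prdx1 higher and Gpx1 lower (adjusted p = 0.000999, 0.0346 and 0.0312). The 16 include Gstm4, tested only through the KO_let-7g libraries. Of the blood markers, Cd68 and Cd14 were higher with let-7g (log2 fold change 1.31 and 0.84) and Cd74 lower (-1.29), and their part was not tested.

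With a nontargeting siRNA in both genotypes, 5 members rose and 14 fell in KO_siCtrl against WT_siCtrl. These were 55.9% of the 34, close to the 54.3% of all genes tested (29.1% higher and 25.2% lower). The median log2 fold change was -0.20 over the 34 and 0.04 over all tested genes. With 1 library left out 10 to 15 members fell, and with the replicate block 7 rose and 16 fell. Mgst2, Gstm2, Prdx6, Gsr and Nfe2l2 rose, and the largest falls were in Mgst1, Mgst3, Keap1 and Gstm7. The summed blood markers were 41.5 to 50.6 FPKM in KO_siCtrl and 16.1 to 25.1 FPKM in WT_siCtrl libraries. Cd74 and Cd14 were higher in KO_siCtrl (adjusted p = 0.000633 and 0.00585), Cd68 was not called, and the part of these markers was not tested.

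The promoter word TGACNNNGC was counted among the called members that had a window, beside its 35.3% over all 34 members with a window and 15.2% over all genes. Against KO_siCtrl it was in 8 of 15 that rose and 0 of 3 that fell with let-7g, and in 4 of 6 that rose and 1 of 3 that fell with the siRNA to Nr6a1. In KO_let-7g against KO_siNr6a1 5 of 13 higher and 1 of 2 lower members held it, and in KO_siCtrl against WT_siCtrl 1 of 3 that rose and 5 of 12 that fell. TGANTCA was in 3 of 15 members that rose with let-7g and 1 of 3 that fell. These counts are small and are a description.

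**Figure D1:**
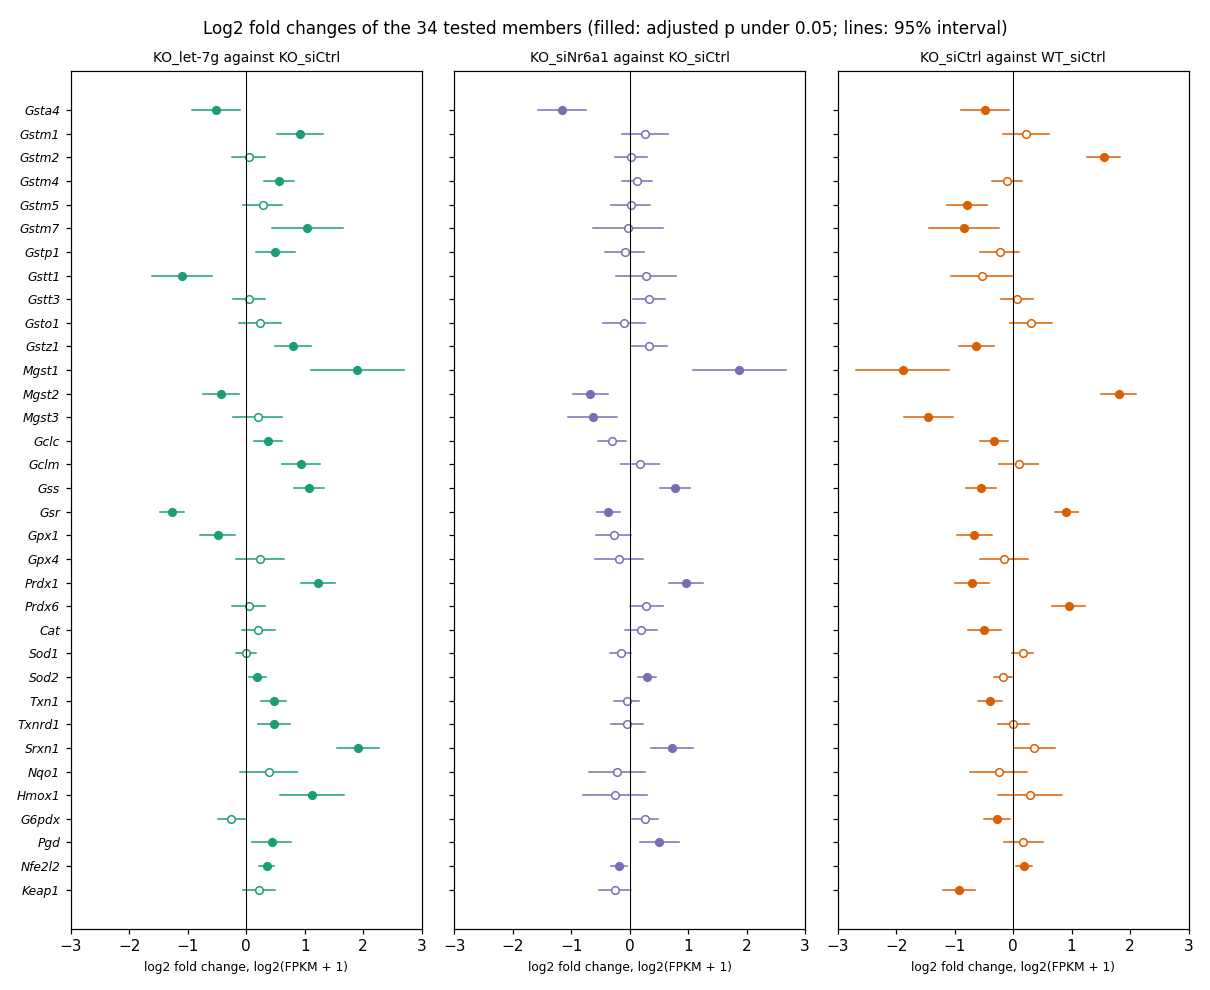
Log2 fold changes, on the log2(FPKM + 1) scale, of the 34 tested members in 3 comparisons. Points are estimates over 3 libraries a group, lines are 95% intervals, and filled points have an adjusted p under 0.05. With let-7g 17 filled points lie to the right of 0 and 5 to the left, with the siRNA to Nr6a1 6 and 5, and in KO_siCtrl against WT_siCtrl 5 and 14.

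Among the regulators, Nfe2l2 rose with let-7g by a small amount. It was 69.6, 66.7 and 73.9 FPKM in KO_let-7g, 48.5, 48.1 and 48.3 in KO_siNr6a1, 54.01, 54.4 and 56.1 in KO_siCtrl and 46.4, 49.7 and 48.1 in WT_siCtrl libraries. The KO_let-7g libraries were the highest and did not overlap the others (log2 fold change 0.35, SE 0.06, adjusted p = 0.000836 against KO_siCtrl, and log2 fold change 0.53, SE 0.06, adjusted p = 9.11e-05 against KO_siNr6a1). The difference of KO_siNr6a1 from KO_siCtrl was smaller (log2 fold change -0.18, SE 0.06, adjusted p = 0.0454), and that call was lost in 14 of 23 alternative settings, with any 1 KO_siCtrl or KO_siNr6a1 library left out among them (highest adjusted p 0.12, without KO_siCtrl replicate 2) and also without KO_let-7g replicate 0 or 1 or WT_siCtrl replicate 1 (0.0683, 0.0522 and 0.0535). Against WT_siCtrl, KO_siCtrl was slightly higher (log2 fold change 0.19, SE 0.06, adjusted p = 0.022), a call lost without WT_siCtrl replicate 0 or KO_siCtrl replicate 2 (adjusted p = 0.067 and 0.0655) and under upper-quartile scaling, where the log2 fold change was 0.12. That call was also lost under median-of-ratios scaling and in a fit of only the 2 groups compared.

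Keap1, whose protein holds NRF2 for destruction, had 20.8, 20.9 and 24.4 FPKM in KO_let-7g, 15.1, 16.1 and 15.8 in KO_siNr6a1, 17.5, 17.7 and 21.5 in KO_siCtrl and 32.4, 34.2 and 44.9 in WT_siCtrl libraries. All 3 WT_siCtrl libraries lay above all libraries of the other groups. Keap1 fell in KO_siCtrl against WT_siCtrl (log2 fold change -0.93, SE 0.12, adjusted p = 8.99e-05). In KO_let-7g it was not called against KO_siCtrl (log2 fold change 0.21, SE 0.12, adjusted p = 0.192) or in KO_siNr6a1 (log2 fold change -0.25, SE 0.12, adjusted p = 0.154), while with the replicate block both were called, the first higher and the second lower (adjusted p = 0.0436 and 0.0277). Between the treatments Keap1 was higher with let-7g (log2 fold change 0.47, SE 0.12, adjusted p = 0.0124), a call lost without KO_let-7g replicate 2 (adjusted p = 0.0512).

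Bach1, the repressor with 2 let-7 8mers shown above, had 8.49, 8.69 and 7.03 FPKM in KO_let-7g, 16.2, 13.99 and 14.1 in KO_siNr6a1, 17.4, 17.4 and 15.3 in KO_siCtrl and 9.27, 7.99 and 8.37 in WT_siCtrl libraries. KO_let-7g libraries were as low as WT_siCtrl libraries, and the other 2 groups, which overlapped each other, were above both without overlap. Bach1 fell with let-7g (log2 fold change -0.97, SE 0.10, adjusted p = 2.97e-05) and was higher in KO_siCtrl than in WT_siCtrl (log2 fold change 0.89, SE 0.10, adjusted p = 2.68e-05). With the siRNA to Nr6a1 it was not called (log2 fold change -0.17, SE 0.10, adjusted p = 0.237, 95% interval -0.39 to 0.05). The difference between the treatments was -0.80 (SE 0.10, adjusted p = 0.000163). Abcc5, the other further pathway gene with the 8mer, was not called with let-7g (log2 fold change -0.12, SE 0.10, adjusted p = 0.378).

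**Figure D2:**
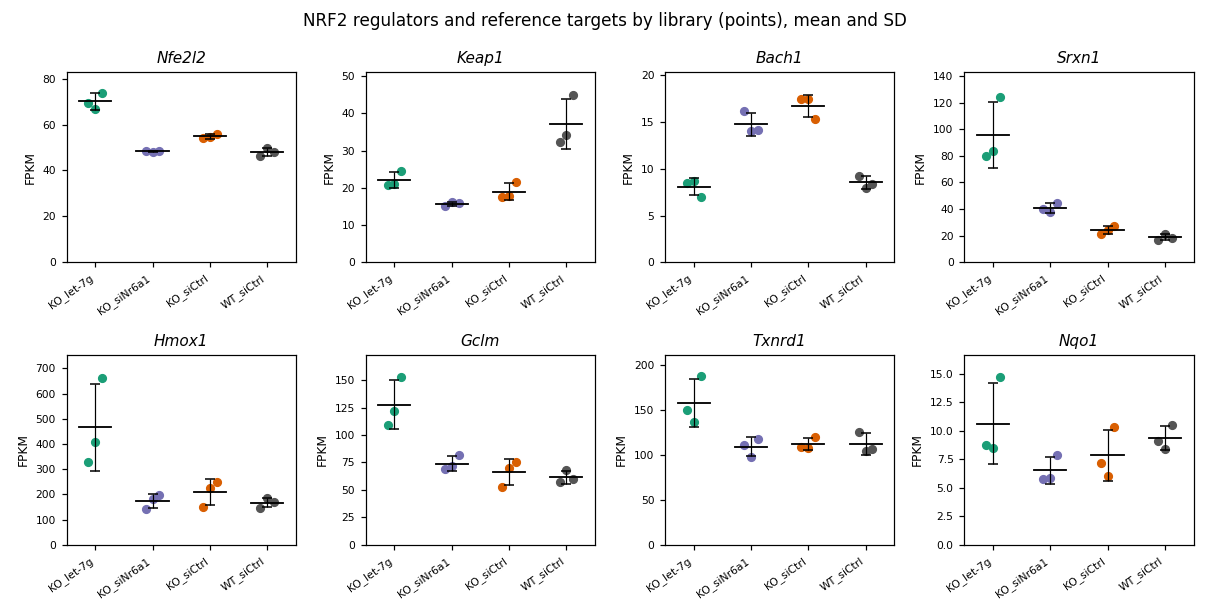
FPKM of Nfe2l2, Keap1, Bach1, Srxn1, Hmox1, Gclm, Txnrd1 and Nqo1 in each library (points), with the group mean (bar) and SD (whisker) over 3 libraries. Groups run from KO_let-7g to WT_siCtrl. Srxn1, Hmox1 and Gclm are highest in all 3 KO_let-7g libraries, Bach1 is low in KO_let-7g and WT_siCtrl, and Keap1 is highest in WT_siCtrl.

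Srxn1 encodes sulfiredoxin, which repairs overoxidized peroxiredoxins, and had, with Mgst1, the largest log2 rise of the members with let-7g. It was 79.5, 83.8 and 124 FPKM in KO_let-7g, 40.03, 37.6 and 44.6 in KO_siNr6a1, 21.4, 24.3 and 27.4 in KO_siCtrl and 17.03, 21.1 and 18.01 in WT_siCtrl libraries. The groups stood in the order KO_let-7g, KO_siNr6a1, then KO_siCtrl and WT_siCtrl, and no 2 groups overlapped. KO_siCtrl against WT_siCtrl was not called (adjusted p = 0.0763), and with the replicate block it was (0.028). The rise was 1.91 with let-7g (SE 0.16, adjusted p = 7.99e-06) and 0.72 with the siRNA to Nr6a1 (SE 0.16, adjusted p = 0.00654). The treatments differed from each other (log2 fold change 1.19, SE 0.16, adjusted p = 0.000228). Txnrd1, thioredoxin reductase, which passes electrons from NADPH to thioredoxin, had 149.8, 137 and 188 FPKM in KO_let-7g, 112, 97.7 and 118 in KO_siNr6a1, 109, 108 and 119.9 in KO_siCtrl and 126, 105 and 107 in WT_siCtrl libraries. It rose with let-7g (log2 fold change 0.48, SE 0.12, adjusted p = 0.00816) and was also higher than with the siRNA to Nr6a1 (log2 fold change 0.52, SE 0.12, adjusted p = 0.00613). KO_siNr6a1, KO_siCtrl and WT_siCtrl libraries overlapped. The 95% interval of the difference was -0.31 to 0.23 for KO_siNr6a1 against KO_siCtrl and -0.27 to 0.27 for KO_siCtrl against WT_siCtrl. Txn1, thioredoxin itself, was the most abundant of the 3, at 536, 494 and 601 FPKM in KO_let-7g, 382, 394 and 358 in KO_siNr6a1, 392, 399 and 385 in KO_siCtrl and 539, 552 and 460.1 in WT_siCtrl libraries. Txn1 rose with let-7g, fell in KO_siCtrl against WT_siCtrl, and was not called with the siRNA to Nr6a1. After quantile normalization the difference of Txn1 in KO_siCtrl against WT_siCtrl was -0.11 and was not called (adjusted p = 0.236).

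Hmox1, heme oxygenase, which opens the heme ring and releases iron, had 327, 409 and 660.3 FPKM in KO_let-7g, 143, 180.0 and 196 in KO_siNr6a1, 152, 225 and 250.2 in KO_siCtrl and 147, 185 and 170.3 in WT_siCtrl libraries. Only the KO_let-7g libraries stood apart, and they spread widely among themselves. Hmox1 rose with let-7g against KO_siCtrl (log2 fold change 1.12, SE 0.25, adjusted p = 0.00377) and was higher than with the siRNA to Nr6a1 (log2 fold change 1.37, SE 0.25, adjusted p = 0.00145). Its difference was not called for KO_siNr6a1 against KO_siCtrl (95% interval -0.80 to 0.30, adjusted p = 0.49) or in KO_siCtrl against WT_siCtrl (-0.26 to 0.84, adjusted p = 0.349). Nqo1, a quinone reductase often used as a readout of NRF2, was low, at 8.73, 8.46 and 14.7 FPKM in KO_let-7g, 5.79, 5.88 and 7.92 in KO_siNr6a1, 7.14, 6.06 and 10.4 in KO_siCtrl and 9.11, 8.43 and 10.5 in WT_siCtrl libraries. Replicate 2 was the highest library in each group, and KO_let-7g and KO_siCtrl libraries overlapped. The let-7g difference was not called (log2 fold change 0.38, SE 0.22, adjusted p = 0.181), and with the replicate block it was (adjusted p = 0.00989). Between the treatments Nqo1 was higher with let-7g (log2 fold change 0.60, SE 0.22, adjusted p = 0.0486), a call lost in 13 of 23 alternative settings. Without KO_let-7g replicate 2 that difference was 0.36 (adjusted p = 0.185), and it was also lost without KO_siNr6a1 replicate 0 or 1, KO_siCtrl replicate 0 or any 1 WT_siCtrl library (adjusted p = 0.0534 to 0.131). No difference of Nqo1 was called for KO_siNr6a1 against KO_siCtrl (-0.22, adjusted p = 0.498) or for KO_siCtrl against WT_siCtrl (-0.25, adjusted p = 0.362).

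Genes of glutathione supply moved in different directions. Gclc, the catalytic subunit of glutamate-cysteine ligase, the rate-limiting enzyme of glutathione synthesis, had 32.7, 33.8 and 37.6 FPKM in KO_let-7g, 21.8, 19.5 and 23.04 in KO_siNr6a1, 22.4, 27.8 and 29.997 in KO_siCtrl and 35.4, 34.5 and 31.4 in WT_siCtrl libraries. It was lowest in KO_siNr6a1, with KO_let-7g and WT_siCtrl at like levels. Gclc rose with let-7g (log2 fold change 0.37, SE 0.11, adjusted p = 0.0173), a call lost without KO_siCtrl replicate 0 or KO_let-7g replicate 2 (adjusted p = 0.0702 and 0.0663) and also under median-of-ratios scaling. It fell in KO_siCtrl against WT_siCtrl (log2 fold change -0.33, SE 0.11, adjusted p = 0.0239), where leaving out WT_siCtrl replicate 0, WT_siCtrl replicate 1 or KO_siCtrl replicate 0 ended the call (adjusted p = 0.0674, 0.067 and 0.102, the last with a log2 fold change of -0.21). The treatments differed for Gclc: KO_let-7g exceeded KO_siNr6a1 by 0.67 (adjusted p = 0.000771), and KO_siNr6a1 was -0.30 from KO_siCtrl (adjusted p = 0.0619, 0.0388 with the block).

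Gclm, the modifier subunit of the same ligase, had 109, 122 and 152 FPKM in KO_let-7g, 68.97, 71.3 and 81.6 in KO_siNr6a1, 53.1, 69.8 and 75.4 in KO_siCtrl and 56.8, 67.9 and 59.5 in WT_siCtrl libraries. The KO_let-7g libraries were the highest, and the other 3 groups overlapped in part. Gclm rose with let-7g (log2 fold change 0.94, SE 0.15, adjusted p = 0.000439) and exceeded KO_siNr6a1 (log2 fold change 0.77, SE 0.15, adjusted p = 0.00203). It was not called with the siRNA to Nr6a1 (95% interval -0.16 to 0.50) or without Dicer (-0.23 to 0.42). Gss, glutathione synthetase, which adds the last amino acid, had 34.7, 32.4 and 39.9 FPKM in KO_let-7g, 27.9, 28.95 and 29.7 in KO_siNr6a1, 15.7, 16.3 and 17.4 in KO_siCtrl and 20.4, 28.9 and 24.7 in WT_siCtrl libraries. KO_siCtrl libraries were the lowest, without overlap with any other group. Between the treatments Gss was not called (adjusted p = 0.066), and with the replicate block it was, higher with let-7g (0.033). Gss rose with let-7g (log2 fold change 1.07, SE 0.12, adjusted p = 3.83e-05) and with the siRNA to Nr6a1 (log2 fold change 0.77, SE 0.12, adjusted p = 0.000739), and it fell in KO_siCtrl against WT_siCtrl. Gsr, glutathione reductase, went the other way, with 45.2, 55.5 and 52.8 FPKM in KO_let-7g, 92.3, 92.2 and 104 in KO_siNr6a1, 118, 119.8 and 136 in KO_siCtrl and 66.2, 66.5 and 64.7 in WT_siCtrl libraries. No 2 groups overlapped, and KO_siCtrl was the highest and KO_let-7g the lowest. Gsr fell with let-7g (log2 fold change -1.27, SE 0.09, adjusted p = 3.17e-06) and less with the siRNA to Nr6a1 (log2 fold change -0.37, SE 0.09, adjusted p = 0.0107), the difference between the treatments being -0.90 (adjusted p = 4.18e-05). In KO_siCtrl it exceeded WT_siCtrl (log2 fold change 0.91, SE 0.09, adjusted p = 9.51e-06). Slc7a11, the cystine importer that feeds glutathione synthesis, had 21.03, 22.8 and 22.004 FPKM in KO_let-7g, 13.4, 13.8 and 14.7 in KO_siNr6a1, 11.7, 14.7 and 13.1 in KO_siCtrl and 13.6, 14.7 and 12.5 in WT_siCtrl libraries. The importer rose with let-7g (log2 fold change 0.70, SE 0.09, adjusted p = 0.000134), exceeded KO_siNr6a1 by 0.61 (adjusted p = 0.000466), and was not called in the other 2 comparisons.

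Of the peroxide and superoxide genes, Prdx1, a peroxiredoxin that reduces hydrogen peroxide, had 452, 498 and 476 FPKM in KO_let-7g, 392, 427 and 378 in KO_siNr6a1, 213, 224 and 175 in KO_siCtrl and 333, 398 and 274 in WT_siCtrl libraries. As with Gss, KO_siCtrl libraries were below all others. Prdx1 rose with let-7g (log2 fold change 1.22, SE 0.13, adjusted p = 3.74e-05) and with the siRNA to Nr6a1 (log2 fold change 0.97, SE 0.13, adjusted p = 0.000416), and fell in KO_siCtrl against WT_siCtrl. Prdx6, a peroxiredoxin that also acts on phospholipids, had 73.8, 71.2 and 94.1 FPKM in KO_let-7g, 90.3, 90.4 and 102 in KO_siNr6a1, 74.5, 68.8 and 88.9 in KO_siCtrl and 40.96, 42.4 and 35.2 in WT_siCtrl libraries. All libraries without Dicer were above all WT_siCtrl libraries (log2 fold change 0.95, SE 0.13, adjusted p = 8.37e-05), and neither treatment was called against KO_siCtrl. Prdx6 has a near-identical copy in the mouse genome, so its value is uncertain.

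Gpx1, the main cytosolic glutathione peroxidase, had 146, 167 and 179.9 FPKM in KO_let-7g, 158, 218 and 202 in KO_siNr6a1, 206, 234 and 253 in KO_siCtrl and 336, 352 and 416 in WT_siCtrl libraries. It was highest in WT_siCtrl, and it fell with let-7g and in KO_siCtrl against WT_siCtrl. The let-7g call (log2 fold change -0.49, SE 0.14, adjusted p = 0.0125) was lost without KO_let-7g replicate 0 (adjusted p = 0.0533). Cat, catalase, was 32.8 to 46.9 FPKM in KO_let-7g, 35.2 to 41.97 in KO_siNr6a1, 31.3 to 35.1 in KO_siCtrl and 41.9 to 51.1 in WT_siCtrl libraries, and it fell in KO_siCtrl against WT_siCtrl. With let-7g Cat was not called (adjusted p = 0.198), and with the replicate block it was, as higher (0.0438). Sod2, the member with the let-7 8mer, was 25.5, 25.8 and 26.5 FPKM in KO_let-7g, 26.96, 29.5 and 27.6 in KO_siNr6a1, 21.5, 22.6 and 23.7 in KO_siCtrl and 25.3, 26.98 and 24.5 in WT_siCtrl libraries. It was not lower with let-7g: it rose with let-7g and with the siRNA to Nr6a1, KO_siCtrl being the lowest group. KO_siCtrl against WT_siCtrl was not called (adjusted p = 0.0546), and with the replicate block it was, as lower (0.0248). The let-7g difference was small (log2 fold change 0.19, SE 0.07, adjusted p = 0.0416), and its call was lost under median-of-ratios and quantile scaling (0.11 and 0.13 on the log2 scale) and with KO_siCtrl replicate 0 or 1, any 1 KO_let-7g library, or KO_siNr6a1 replicate 0 or 2 left out (adjusted p = 0.0523 to 0.146). Gpx4, which reduces lipid peroxides, and Sod1, the cytosolic superoxide dismutase, were abundant at 169 to 318 and 331 to 435 FPKM over all 12 libraries, and were called in none of the 4 comparisons. With the replicate block Gpx4 was called higher in KO_let-7g against both other Dicer -/- groups (adjusted p = 0.0176 against KO_siCtrl and 0.000999 against KO_siNr6a1). Gpx3, the secreted plasma peroxidase, was at most 0.308 FPKM in any library.

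**Figure D3:**
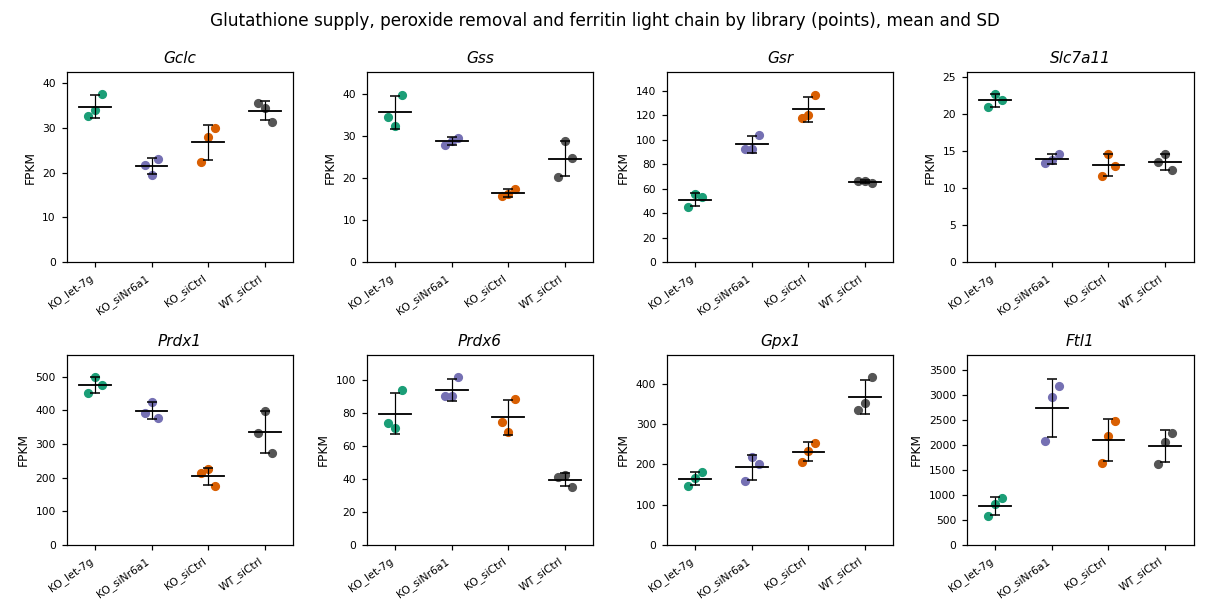
FPKM of Gclc, Gss, Gsr, Slc7a11, Prdx1, Prdx6, Gpx1 and Ftl1 in each library (points), with the group mean (bar) and SD (whisker) over 3 libraries, from KO_let-7g to WT_siCtrl. Gss and Prdx1 are lowest in KO_siCtrl, Gsr is highest in KO_siCtrl and lowest in KO_let-7g, and Ftl1 is lowest in KO_let-7g.

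The NADPH that both reductases use comes in part from the pentose phosphate pathway. Pgd, its 6-phosphogluconate dehydrogenase, had 166, 180.2 and 244 FPKM in KO_let-7g, 191, 197 and 221 in KO_siNr6a1, 130.2, 130.5 and 172 in KO_siCtrl and 114, 129.8 and 138 in WT_siCtrl libraries. It rose with let-7g and with the siRNA to Nr6a1 (log2 fold change 0.50, SE 0.15, adjusted p = 0.0286 for the siRNA). KO_let-7g and KO_siCtrl libraries overlapped. The let-7g call (log2 fold change 0.44, SE 0.15, adjusted p = 0.035) was lost under median-of-ratios scaling (adjusted p = 0.0674) and when KO_siCtrl replicate 0 or 1 or KO_let-7g replicate 2 was left out (adjusted p = 0.115, 0.111 and 0.133), the last with a log2 fold change of 0.28. Leaving out KO_siCtrl replicate 0 or 1, or KO_siNr6a1 replicate 1 or 2, ended the siRNA call (adjusted p = 0.0936, 0.0944, 0.0602 and 0.0977). G6pdx, glucose-6-phosphate dehydrogenase, the first enzyme of the pathway, had 41.4, 45.7 and 45.6 FPKM in KO_let-7g, 60.5, 64.8 and 65.8 in KO_siNr6a1, 48.1, 52.9 and 58.02 in KO_siCtrl and 55.5, 66.5 and 72.2 in WT_siCtrl libraries. It was lower with let-7g than with the siRNA to Nr6a1 and fell in KO_siCtrl against WT_siCtrl (log2 fold change -0.28, SE 0.10, adjusted p = 0.0366). That fall was lost without WT_siCtrl replicate 1, WT_siCtrl replicate 2, KO_siCtrl replicate 0 or KO_siCtrl replicate 1 (adjusted p = 0.102, 0.133, 0.138 and 0.0757). Neither treatment was called for G6pdx against KO_siCtrl, and with the block both were, lower with let-7g and higher with the siRNA (adjusted p = 0.0048 and 0.0057).

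The 3 tested membrane transferases each had a pattern of their own. Mgst1, a microsomal transferase with peroxidase activity, had 49.2, 87.997 and 65.1 FPKM in KO_let-7g, 52.9, 77.3 and 65.4 in KO_siNr6a1, 16.4, 23.5 and 12.4 in KO_siCtrl and 37.5, 114 and 64.9 in WT_siCtrl libraries. All KO_siCtrl libraries were below all others, and the other 3 groups overlapped. Mgst1 rose with let-7g (log2 fold change 1.90, SE 0.36, adjusted p = 0.00145) and by a like amount with the siRNA to Nr6a1 (log2 fold change 1.87, SE 0.36, adjusted p = 0.00312), and the difference between the treatments had a 95% interval of -0.77 to 0.82. In KO_siCtrl it fell against WT_siCtrl (log2 fold change -1.89, SE 0.36, adjusted p = 0.00108). Mgst2, which can make leukotriene C4, went the opposite way, with 62.1, 64.5 and 78.5 FPKM in KO_let-7g, 53.7, 63.9 and 54.9 in KO_siNr6a1, 107, 88.6 and 81.9 in KO_siCtrl and 23.6, 23.4 and 30.6 in WT_siCtrl libraries. KO_siCtrl was the highest group and WT_siCtrl the lowest. Mgst2 was higher in KO_siCtrl than in WT_siCtrl (log2 fold change 1.80, SE 0.14, adjusted p = 1.19e-06) and fell with the siRNA to Nr6a1 (log2 fold change -0.67, SE 0.14, adjusted p = 0.00414) and with let-7g (log2 fold change -0.43, SE 0.14, adjusted p = 0.0243), while both treated groups stayed above every WT_siCtrl library. The let-7g call of Mgst2 was lost without KO_siCtrl replicate 0, KO_let-7g replicate 0 or KO_let-7g replicate 1 (adjusted p = 0.1, 0.0872 and 0.0752). Mgst3, a related microsomal enzyme, had 19.6, 20.3 and 18.5 FPKM in KO_let-7g, 8.78, 13.2 and 10.02 in KO_siNr6a1, 17.1, 18.1 and 15.4 in KO_siCtrl and 33.8, 56.2 and 57.4 in WT_siCtrl libraries. It fell in KO_siCtrl against WT_siCtrl (log2 fold change -1.45, SE 0.19, adjusted p = 7.21e-05), and neither treated group reached the WT_siCtrl libraries. With the siRNA to Nr6a1 Mgst3 fell further (log2 fold change -0.63, SE 0.19, adjusted p = 0.0281), a call lost without KO_siCtrl replicate 0, KO_siCtrl replicate 1, KO_siNr6a1 replicate 0 or KO_siNr6a1 replicate 2 (adjusted p = 0.0684, 0.0845, 0.0969 and 0.0809). It was higher with let-7g than with the siRNA (log2 fold change 0.83, SE 0.19, adjusted p = 0.00532). Gstk1, the mitochondrial and peroxisomal kappa enzyme, was too low to be tested, with 1.13, 0.798 and 0.7503 FPKM in KO_let-7g, 0.408, 0.537 and 0.684 in KO_siNr6a1, 0.153, 0.351 and 0.145 in KO_siCtrl and 0.0689, 0.0591 and 0 in WT_siCtrl libraries.

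**Figure D4:**
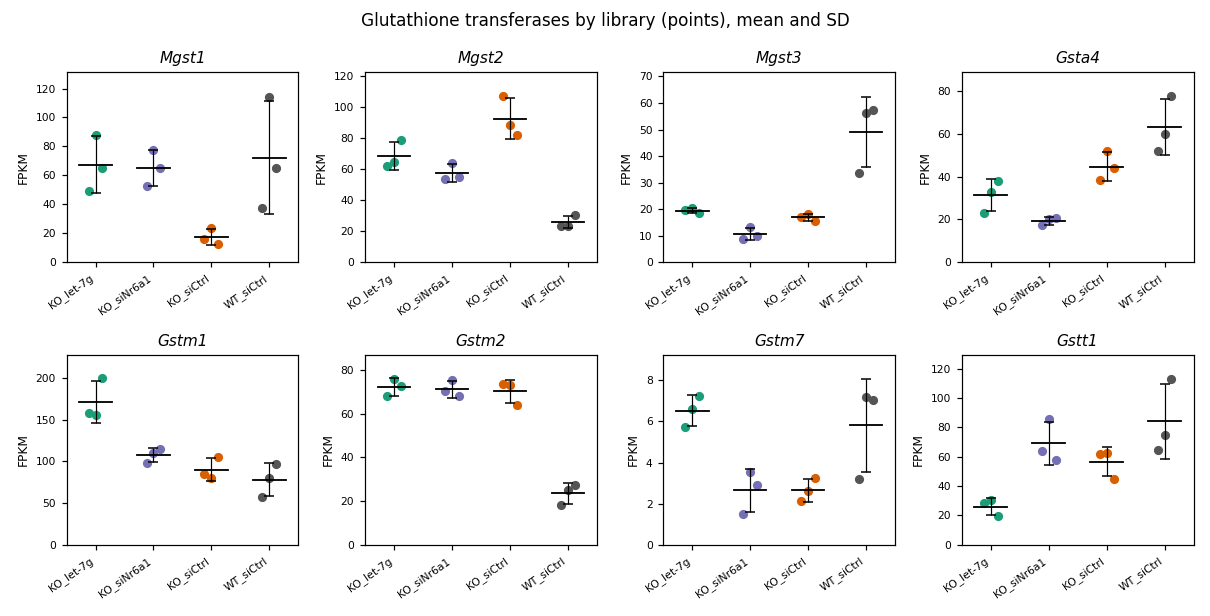
FPKM of 8 glutathione transferases in each library (points), with the group mean (bar) and SD (whisker) over 3 libraries, from KO_let-7g to WT_siCtrl. Mgst1 is low in KO_siCtrl alone, Gstm2 is low in WT_siCtrl alone, Gstm1 is highest in KO_let-7g, and Gstt1 is lowest in KO_let-7g.

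Among cytosolic transferases, Gstp1 was the most abundant, at 286, 327 and 352 FPKM in KO_let-7g, 185, 250.3 and 210.4 in KO_siNr6a1, 199, 234 and 251 in KO_siCtrl and 217, 283 and 307 in WT_siCtrl libraries. Gstp1 rose with let-7g (log2 fold change 0.50, SE 0.15, adjusted p = 0.02) and exceeded KO_siNr6a1, and was not called in the other 2 comparisons. The rise was not called without KO_siCtrl replicate 0, KO_let-7g replicate 1 or KO_let-7g replicate 2 (adjusted p = 0.0802, 0.0543 and 0.0704). Its coding sequence is 98.1% identical to that of Gstp2, so reads of the 2 may have been split or shared. Gsto1, the omega enzyme, which reduces dehydroascorbate, was 187 to 279 FPKM in KO_let-7g, 153 to 190.3 in KO_siNr6a1, 155 to 214 in KO_siCtrl and 141 to 159 in WT_siCtrl libraries and was called in none of the 4 comparisons. With the replicate block Gsto1 was called higher in KO_siCtrl than in WT_siCtrl and in KO_let-7g than in KO_siNr6a1 (adjusted p = 0.0394 and 0.0318), and Gstp1 lower in KO_siCtrl than in WT_siCtrl (0.0288). Gsta4, which conjugates the lipid peroxidation product 4-hydroxynonenal, had 23.2, 32.98 and 37.8 FPKM in KO_let-7g, 17.2, 20.3 and 20.7 in KO_siNr6a1, 38.3, 51.8 and 44.1 in KO_siCtrl and 52.1, 59.9 and 77.8 in WT_siCtrl libraries. KO_siNr6a1 was the lowest group, without overlap with any other, then KO_let-7g, KO_siCtrl and WT_siCtrl. Gsta4 fell with the siRNA to Nr6a1 (log2 fold change -1.16, SE 0.19, adjusted p = 0.00115). It fell also with let-7g (log2 fold change -0.52, SE 0.19, adjusted p = 0.0429), a call lost when WT_siCtrl replicate 1, KO_siCtrl replicate 1 or 2, KO_let-7g replicate 0 or 1, or KO_siNr6a1 replicate 1 or 2 was left out (highest adjusted p = 0.167, without KO_let-7g replicate 0, with a log2 fold change of -0.32). Its fall in KO_siCtrl against WT_siCtrl (log2 fold change -0.48, SE 0.19, adjusted p = 0.0491) was lost in 12 of 23 alternative settings, with WT_siCtrl replicate 1 or 2, KO_siCtrl replicate 0 or 2, KO_let-7g replicate 1 or any 1 KO_siNr6a1 library left out among them (highest adjusted p = 0.181, without WT_siCtrl replicate 2). Gsta4 was higher with let-7g than with the siRNA (log2 fold change 0.64, SE 0.19, adjusted p = 0.0187), a call lost without KO_let-7g replicate 1, KO_let-7g replicate 2 or KO_siNr6a1 replicate 0 (adjusted p = 0.0593, 0.0757 and 0.0651).

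The mu transferases Gstm5, Gstm7, Gstm6, Gstm2, Gstm1 and Gstm4 lie next to each other on chromosome 3, with Gstm3 between Gstm6 and Gstm2, and did not share 1 pattern. Gstm1 had 158, 155 and 199.8 FPKM in KO_let-7g, 97.998, 109.7 and 115 in KO_siNr6a1, 84.4, 79.5 and 106 in KO_siCtrl and 57.1, 79.6 and 96.6 in WT_siCtrl libraries. It was highest in KO_let-7g without overlap, and it rose with let-7g and exceeded KO_siNr6a1, the second call being lost without KO_let-7g replicate 2 (adjusted p = 0.0533). Gstm2 had 67.9, 75.8 and 72.8 FPKM in KO_let-7g, 70.3, 75.4 and 67.9 in KO_siNr6a1, 73.4, 73.2 and 63.9 in KO_siCtrl and 18.3, 24.95 and 27.5 in WT_siCtrl libraries. All libraries without Dicer were far above those of WT_siCtrl (log2 fold change 1.55, SE 0.13, adjusted p = 2.12e-06), and neither treatment was called, the 95% interval against KO_siCtrl being -0.24 to 0.32 with let-7g and -0.26 to 0.30 with the siRNA. Gstm5 went the opposite way to Gstm2, at 32.7 to 38.3 FPKM in KO_let-7g, 26.2 to 32.2 in KO_siNr6a1, 23.7 to 35.998 in KO_siCtrl and 42.6 to 56.4 in WT_siCtrl libraries. It fell in KO_siCtrl against WT_siCtrl. Only with the replicate block was Gstm5 called higher in KO_let-7g than in KO_siCtrl and KO_siNr6a1 (adjusted p = 0.0198 and 0.0287, against 0.157 and 0.195 without the block). Gstm7 was low, at 5.73, 6.59 and 7.23 FPKM in KO_let-7g, 1.495, 3.55 and 2.93 in KO_siNr6a1, 2.13, 2.595 and 3.23 in KO_siCtrl and 3.18, 7.19 and 7.05 in WT_siCtrl libraries. With let-7g it rose (log2 fold change 1.05, SE 0.27, adjusted p = 0.00897) and exceeded KO_siNr6a1 (log2 fold change 1.08, SE 0.27, adjusted p = 0.00892). In KO_siCtrl it fell against WT_siCtrl (log2 fold change -0.84, SE 0.27, adjusted p = 0.0216), although the 2 groups overlapped, and the call was lost without WT_siCtrl replicate 1, WT_siCtrl replicate 2, KO_siCtrl replicate 0 or KO_siCtrl replicate 1 (adjusted p = 0.0876, 0.0805, 0.0727 and 0.0514). The coding sequences of Gstm2 and Gstm7 are 85.2% identical, the most alike of the mu pairs among the members, so shared reads could move values between them. Gstm4 was 1.08 to 1.43 FPKM in KO_let-7g and at most 0.853 FPKM in any other library. Its log2 fold change with let-7g was 0.56 with a pseudocount of 1, 1.12 with one of 0.1 and 0.35 after quantile normalization. After quantile normalization the call of Gstm4 against KO_siNr6a1 was lost (adjusted p = 0.178). Gstm6 was 0.988 to 1.43 FPKM in WT_siCtrl, above its 0.535 FPKM at most in any library of another group.

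Of the theta and zeta enzymes, Gstt1, a theta transferase that acts on small halogenated compounds, had 28.3, 30.2 and 19.5 FPKM in KO_let-7g, 63.7, 85.6 and 57.7 in KO_siNr6a1, 62.1, 62.5 and 44.9 in KO_siCtrl and 64.7, 74.5 and 113 in WT_siCtrl libraries. KO_let-7g libraries were below all others. KO_siNr6a1 overlapped both KO_siCtrl and WT_siCtrl. KO_siCtrl lay below WT_siCtrl, but the difference was not called (log2 fold change -0.54, adjusted p = 0.0722). Gstt1 fell with let-7g (log2 fold change -1.10, SE 0.23, adjusted p = 0.0029) and lay below KO_siNr6a1 (log2 fold change -1.38, SE 0.23, adjusted p = 0.000964). Its neighbour in sequence, Gstt3, was 13.9 to 16.3 FPKM in KO_let-7g, 16.6 to 19.4 in KO_siNr6a1, 12.3 to 15.98 in KO_siCtrl and 12.1 to 15.9 in WT_siCtrl libraries and was called in none of the 4 comparisons. Gstz1, maleylacetoacetate isomerase of tyrosine breakdown, had 13.8, 15.98 and 14.3 FPKM in KO_let-7g, 9.01, 11.9 and 10.1 in KO_siNr6a1, 7.86, 8.49 and 7.77 in KO_siCtrl and 10.2, 15.2 and 13.9 in WT_siCtrl libraries. Gstz1 rose with let-7g, fell in KO_siCtrl against WT_siCtrl, and was higher with let-7g than with the siRNA to Nr6a1 (log2 fold change 0.47, SE 0.14, adjusted p = 0.0189). The last call was lost under median-of-ratios and quantile scaling (adjusted p = 0.0605 and 0.0559) and without KO_let-7g replicate 1, KO_siNr6a1 replicate 0 or KO_siNr6a1 replicate 2 (adjusted p = 0.0674, 0.0741 and 0.054). With the siRNA Gstz1 was not called against KO_siCtrl (adjusted p = 0.104), and with the replicate block it was, as higher (0.0165). The alpha enzymes Gsta2 and Gsta3 and the theta enzyme Gstt2 were at most 0.617 FPKM in any library and were not tested; the coding sequence of Gsta2 is 97.6% identical to that of Gsta1.

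Beyond the 40 members, 66 further genes of these pathways were read, 57 of which were tested. With let-7g 23 rose and 7 fell against KO_siCtrl, 52.6% of the 57, against 45.6% of all genes. With the siRNA to Nr6a1 9 rose and 5 fell, 24.6% against 29.4% of all genes, and in KO_siCtrl against WT_siCtrl 21 rose and 12 fell, 57.9% against 54.3%. The last counts include Sod3, Gpx7 and Alox5ap, which were tested only through the genotype in which they are high. The medians over the 57 were 0.26, -0.05 and 0.13 on the log2 scale, in the same order of comparisons. Chac1, which degrades glutathione and responds to amino acid stress, was highest in KO_let-7g, at 75.6, 67.3 and 105 FPKM, against 29.8, 42.2 and 48.3 in KO_siNr6a1, 19.2, 31.4 and 30.97 in KO_siCtrl and 9.99, 14.1 and 12.9 in WT_siCtrl libraries. It rose with let-7g (log2 fold change 1.58, SE 0.24, adjusted p = 0.000314) and was higher in KO_siCtrl than in WT_siCtrl (log2 fold change 1.06, SE 0.24, adjusted p = 0.00292). Sqstm1, the autophagy receptor p62, which binds KEAP1, had 414, 481 and 624 FPKM in KO_let-7g and 169.6, 222 and 208 FPKM in KO_siCtrl libraries (log2 fold change 1.32, SE 0.17, adjusted p = 0.000102). Pir, the iron-binding protein pirin, had 8.58, 11.01 and 11.6 FPKM in KO_let-7g, 4.77, 6.26 and 6.42 in KO_siNr6a1, 3.91, 3.66 and 4.7004 in KO_siCtrl and 3.66, 7.08 and 5.46 in WT_siCtrl libraries. It rose with let-7g as well (log2 fold change 1.16, SE 0.19, adjusted p = 0.000584).

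Ferritin light chain, which stores the iron that heme oxygenase releases, moved against Hmox1. Ftl1 had 583, 816 and 942 FPKM in KO_let-7g, 2074, 2966 and 3175 in KO_siNr6a1, 1635, 2173 and 2479 in KO_siCtrl and 1613, 2059 and 2234 in WT_siCtrl libraries. KO_let-7g libraries were below all others (log2 fold change -1.43, SE 0.23, adjusted p = 0.000482 against KO_siCtrl, and log2 fold change -1.81, SE 0.23, adjusted p = 0.000154 against KO_siNr6a1). Ftl1 has near-identical copies in the mouse genome, so its value is uncertain. Glrx, glutaredoxin, which removes glutathione from proteins, was lower in KO_let-7g, at 27.6, 32.4 and 25.6 FPKM, against 53.3, 52.7 and 58.7 FPKM in KO_siNr6a1 and 50.8, 54.7 and 49.6 FPKM in KO_siCtrl libraries (log2 fold change -0.84, SE 0.11, adjusted p = 0.000153 against KO_siCtrl). Aldh3a1, an aldehyde dehydrogenase, had 97.8, 98.8 and 134 FPKM in KO_let-7g, 32.3, 42.4 and 34.3 in KO_siNr6a1, 53.9, 48.3 and 57.2 in KO_siCtrl and 17.4, 18.6 and 30.9 in WT_siCtrl libraries. It exceeded KO_siNr6a1 in KO_let-7g (log2 fold change 1.57, SE 0.20, adjusted p = 0.000165) and WT_siCtrl in KO_siCtrl (log2 fold change 1.26, SE 0.20, adjusted p = 0.000298). Cbr3, a carbonyl reductase, had 10.6, 11.6 and 21.3 FPKM in KO_let-7g, 4.56, 6.08 and 5.11 in KO_siNr6a1, 6.497, 8.12 and 8.42 in KO_siCtrl and 6.09, 9.04 and 10.5 in WT_siCtrl libraries, and was higher with let-7g than with the siRNA (log2 fold change 1.25, SE 0.24, adjusted p = 0.00212).

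With the siRNA to Nr6a1, the largest rises among the 57 were in Ptges, an inducible prostaglandin E synthase of the membrane transferase family, in Txn2, mitochondrial thioredoxin, and in Nfe2l1, a relative of Nfe2l2. Ptges was 28.9, 27.1 and 29.8 FPKM in KO_let-7g, 27.9, 28.3 and 28.5 in KO_siNr6a1, 13.9, 12.9 and 15.2 in KO_siCtrl and 8.78, 12.9 and 11.98 in WT_siCtrl libraries. Both treated groups were above both control groups, with a log2 fold change of 0.97 for the siRNA (adjusted p = 0.000212). Txn2 rose by 0.70 (adjusted p = 0.00158) and Nfe2l1 by 0.68 (adjusted p = 8.35e-05). Ggct, a glutathione breakdown enzyme, Akr1b8, an aldo-keto reductase, and Cbr1, a carbonyl reductase, fell by 0.70, 0.58 and 0.47 on the log2 scale (adjusted p = 0.00306, 0.000761 and 0.0332). The Cbr1 call was lost without KO_siCtrl replicate 1 or 2 or KO_siNr6a1 replicate 0 or 2 (adjusted p = 0.0846, 0.0942, 0.118 and 0.0653).

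In KO_siCtrl against WT_siCtrl the largest differences among these genes were falls. Sod3, the extracellular superoxide dismutase, had 0.166, 0.0239 and 0.275 FPKM in KO_let-7g, 0.0537, 0.0104 and 0.0387 in KO_siNr6a1, 0.0605, 0.162 and 0.0817 in KO_siCtrl and 12.7, 15.3 and 18.4 in WT_siCtrl libraries, and Gpx7, a glutathione peroxidase of the endoplasmic reticulum, had 0.514, 0.533 and 0.309 FPKM in KO_let-7g, 0.489, 0.628 and 0.387 in KO_siNr6a1, 0.3305, 0.253 and 0.0992 in KO_siCtrl and 10.9, 15.96 and 16.1 in WT_siCtrl libraries. Both reached the level for testing only through the WT_siCtrl libraries, where they are high, so their difference is a description. Ggt5, a cell surface enzyme that degrades glutathione, was 2.14, 2.55 and 1.57 FPKM in KO_siCtrl and 9.77, 18.9 and 23.02 FPKM in WT_siCtrl libraries (log2 fold change -2.50, SE 0.29, adjusted p = 3.41e-05). Alox5ap, a leukotriene pathway member of the same membrane family as Mgst2, was 5.55, 6.14 and 4.46 FPKM in KO_siCtrl and 0.308, 0.264 and 0.932 FPKM in WT_siCtrl libraries. It reached the level for testing only through Dicer -/- libraries, where it is high, so this too is a description. Leukocytes express Alox5ap, and in this comparison the blood marker sums given above were higher in KO_siCtrl too, while Ptprc was at or near 0. With let-7g Alox5ap fell (log2 fold change -0.80, adjusted p = 0.00444), Cd14 and Cd68 rose, and Cd74 was not called (-0.63, adjusted p = 0.0733). With the siRNA to Nr6a1 Alox5ap was not called (log2 fold change -0.05, adjusted p = 0.865). Cd74 and Cd68 were not called there either (0.66 and -0.06), and Cd14 fell (-0.44). In KO_let-7g against KO_siNr6a1 Alox5ap and Cd74 were lower (-0.75 and -1.29), and Cd14 and Cd68 were higher (0.84 and 1.31). The part of such cells in these differences was not tested.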

How the data were processed

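Polyadenylated RNA was sequenced from 12 libraries, 3 in each of 4 groups taken from the sample titles. The authors deposited 1 table of FPKM values for 21881 genes; they used build mm9, Cufflinks 1.0.3 and TopHat 1.2.0, per the submitters' processing notes. Neither settings nor the use of strand are given in the sources used here. Overlapping and antisense genes therefore cannot be separated. FPKM is a share of a library, so a change in a few abundant genes moves all others, and depth is unknown; relative depth was read from steps between values under 0.3 FPKM.

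Genes at 1 FPKM or more in at least 3 libraries (11801) were put on the log2(FPKM + 1) scale and fitted in limma 3.58.1 under R 4.3.3, with all 12 libraries, 1 coefficient per group, 8 residual degrees of freedom, a variance trend, two-sided moderated tests and Benjamini-Hochberg adjustment over all genes, called at 0.05. The log2 scale understates changes of genes with low FPKM. The test was checked on simulated data with independent noise drawn from the fitted spread. That check held no replicate effect, so it does not cover libraries that deviate together. Same-numbered libraries of compared groups deviated together (correlation 0.127 to 0.465 over 12 pairs, all above 0.1), so from the data the numbers were taken to pair the libraries; a blocked fit on that number was run beside the unblocked one. Members and lists were chosen with earlier results of these data known. Values, fold changes and tests are given for Nfe2l2, Keap1, Nqo1, Hmox1, Gclc, Gclm, Txnrd1, up to 8 called members with the largest change in each comparison, up to 3 other pathway genes in each direction, Bach1 and Slc7a11, and other members by level and call, with the test where leaving out a library or another scaling ended the call. The 23 alternatives changed the pseudocount, the filter, the scaling, the variance model, the libraries or the block. Sequences came from RefSeq (GRCm38.p6) and GENCODE M21; the table has no coordinates.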

Additional observations from a re-analysis of the deposited data

How the results depend on the processing

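Alternatives were compared for 121 gene results: in each comparison the genes named by the rule above, every called member, Nr6a1 and Dicer1. Most members that were not called are therefore outside the 121, and their gains are not counted here. Of the 121, 83 kept their direction and side of the threshold in all 23 alternative settings. A call was lost in at least 1 setting by 24, 7 gained one, and 7 that were not called reversed. The cause was not tested. Among counts of called members, those lower in KO_let-7g against KO_siNr6a1 were 3, and 7 under median-of-ratios scaling and 5 with library weights. Those higher in KO_siNr6a1 against KO_siCtrl were 6, and 12 with library weights. Those lower there were 5, 8 with the replicate block, and 3 to 5 with 1 library left out. Those lower in KO_let-7g against KO_siCtrl were 5, and 2 to 6 with 1 library left out (2 without KO_let-7g replicate 0, 3 without KO_let-7g replicate 1). In that comparison 60.2% of all called genes were higher as deposited and 49.9% after quantile normalization, where members were 16 higher and 6 lower; in KO_let-7g against KO_siNr6a1 67.6% were, and 48.5% under median-of-ratios scaling. The block ended no member's call and added 6, 6, 5 and 4 in KO_let-7g against KO_siCtrl, KO_let-7g against KO_siNr6a1, KO_siNr6a1 against KO_siCtrl and KO_siCtrl against WT_siCtrl.

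Reversed differences were near 0. Txnrd1 in KO_siCtrl against WT_siCtrl was -0.069 with upper-quartile, -0.052 with median-of-ratios and -0.003 with quantile scaling, and -0.046 to 0.086 with 1 library left out. In KO_siNr6a1 against KO_siCtrl Txnrd1 was 0.013 with median-of-ratios scaling, 0.066 with library weights and -0.102 to 0.034 with 1 left out. With library weights Gclm in KO_siCtrl against WT_siCtrl was -0.089, and Nqo1 and Hmox1 in KO_siNr6a1 against KO_siCtrl were 0.037 and 0.027. With 1 library left out Gclm was -0.009 to 0.241 and Slc7a11 -0.121 to 0.030, both in KO_siCtrl against WT_siCtrl. Nr6a1 in KO_let-7g against KO_siNr6a1 was -0.029 after quantile normalization and -0.011 to 0.258 with 1 left out.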

Other observations

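The small MAF proteins are the shared DNA-binding partners of NRF2 and BACH1, and their genes were looked at after their values had been seen. Mafg had 29.6, 32.5 and 27.98 FPKM in KO_let-7g, 25.5, 24.9 and 22.7 in KO_siNr6a1, 17.3, 18.01 and 15.7 in KO_siCtrl and 13.4, 13.7 and 13.1 in WT_siCtrl libraries. The 4 groups did not overlap, and Mafg was called higher with each treatment than in KO_siCtrl, in KO_let-7g than in KO_siNr6a1, and in KO_siCtrl than in WT_siCtrl. Maff had 23.7, 19.6 and 36.8 FPKM in KO_let-7g, 13.02, 11.9 and 13.6 in KO_siNr6a1, 14.1, 12.4 and 20.9 in KO_siCtrl and 10.1, 7.11 and 8.35 in WT_siCtrl libraries, with the KO_let-7g libraries the most spread, and Mafk was 14.7 to 19.1 FPKM in KO_let-7g, 10.5 to 11.04 in KO_siNr6a1, 11.2 to 16.6 in KO_siCtrl and 9.93 to 11.3 in WT_siCtrl libraries. Fth1, the heavy chain of ferritin, did not go with the light chain: it was 6604 to 9363 FPKM in KO_let-7g, 4419 to 5422 in KO_siNr6a1, 5142 to 6681 in KO_siCtrl and 4429.8 to 5783 in WT_siCtrl libraries, and was called higher in KO_let-7g than in KO_siNr6a1, where Ftl1 was lower.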
